A study of Drosophila melanogaster with 8 samples.

Results

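The comparison described here is between 4 arrays of the newer Affymetrix design, Drosophila 2.0, out of 8 arrays in the series. They were chosen by their labels and by the value table they stand in. Of these, 2 are labelled DEX+CHX and 2 are labelled V+CHX. All 4 carry RNA of S2 cells with CLKGR, in which the circadian activator CLK is joined to the ligand-binding region of the glucocorticoid receptor. S2 cells are a line derived from Drosophila melanogaster embryos that resembles haemocytes, the blood cells of the fly. DEX is dexamethasone, the ligand that frees such a fusion to act in the nucleus. CHX is cycloheximide, which blocks translation and was given to both groups. What V means is left unsaid by the labels, and V is taken here as the control of its table. The other 4 arrays are of an older design, 2 labelled DEX+CHX and 2 labelled EtOH+CHX, and were normalised separately. One older array is labelled as a stable transfectant of CLKGR, the labels do not say whether any line was a single clone, and dose and duration of the treatments are not given in the sources used here.

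In the fly clock, CLK pairs with CYC and binds E-box sequences in front of its targets. Among these targets, per and tim encode the proteins that later block CLK and CYC, vri and Pdp1 encode a repressor and an activator of Clk transcription, and cwo encodes a repressor that competes for E-boxes. When translation is blocked, a transcript that responds to a freed CLK fusion does so without newly made proteins in between, which is the question such a design addresses.

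Whether the labels of the newer arrays name the treatment that each array had is in doubt, and this bears on every signed value below. The clock transcripts that were higher with DEX on the older arrays were lower on the newer arrays labelled DEX, with the values given further on. A true effect of that sign and an exchange of labels cannot be told apart within this table, so all differences are given as labelled, the arrays labelled DEX minus the arrays labelled V. The array titled DEX replicate 2 carries the number of replicate 1 in its source field, and no pair of arrays had identical values.

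Of 18769 probe sets that are no controls, 12436 had a mean log2 value of at least 4 over the 4 arrays and were tested. Values are log2 of the deposited intensity throughout, and differences are on that scale. The base of the deposited scale is not stated. If it was e, every level, difference and SE below is to be multiplied by 0.693. Median values per array were 4.44 and 4.46 on the arrays labelled DEX and 4.45 and 4.49 on those labelled V. Within groups, 223 tested probe sets differed by at least 1 between the DEX arrays and 362 between the V arrays. Across groups the number was 230 to 381 for the 4 pairs of arrays, a range that overlaps the one within groups. V replicate 2 stood furthest from the rest, with Pearson correlations of 0.990 to 0.991 to the other arrays, against 0.993 to 0.994 among the other arrays. Values without it are given for some results below.

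Few probe sets were far apart between the labels. With all 4 arrays, more of these were lower than higher on the arrays labelled DEX. No probe set passed limma's test on these 4 arrays alone at an adjusted p of 0.05 (0 of 12436, 0%), and the smallest adjusted p was 0.318. At an unadjusted p of 0.05, 214 probe sets were lower (1.72%) and 225 higher (1.81%) on the arrays labelled DEX. Together these 439 were a smaller share than 0.05, which such a threshold yields on average with no difference at all. By size the directions were unlike. Both DEX arrays lay under both V arrays with a difference of at least 1 in 61 probe sets (0.491%), and over them in 22 (0.177%). If the deposited scale had base e, 34 lower and 2 higher probe sets would reach that bound. The lower ones reached a size of 3.49 with 18 beyond 2, whereas the higher ones reached 1.78 with 0 beyond 2. Just inside the bound of 1 were wap and CG11168, and just outside were spin, CtsL1 at -0.99 and CG3597 at -0.99. With V replicate 2 left out, wap differed by -0.95 and CG11168 by 0.77. Without V replicate 2 the counts were 108 lower and 34 higher, and without V replicate 1 they were 157 and 114. With 1 array left in a group the requirement of no overlap is weaker, which by itself raises the count. Counts without DEX replicate 1 were 105 and 78, and without DEX replicate 2 they were 81 and 87.

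**Figure D1:**
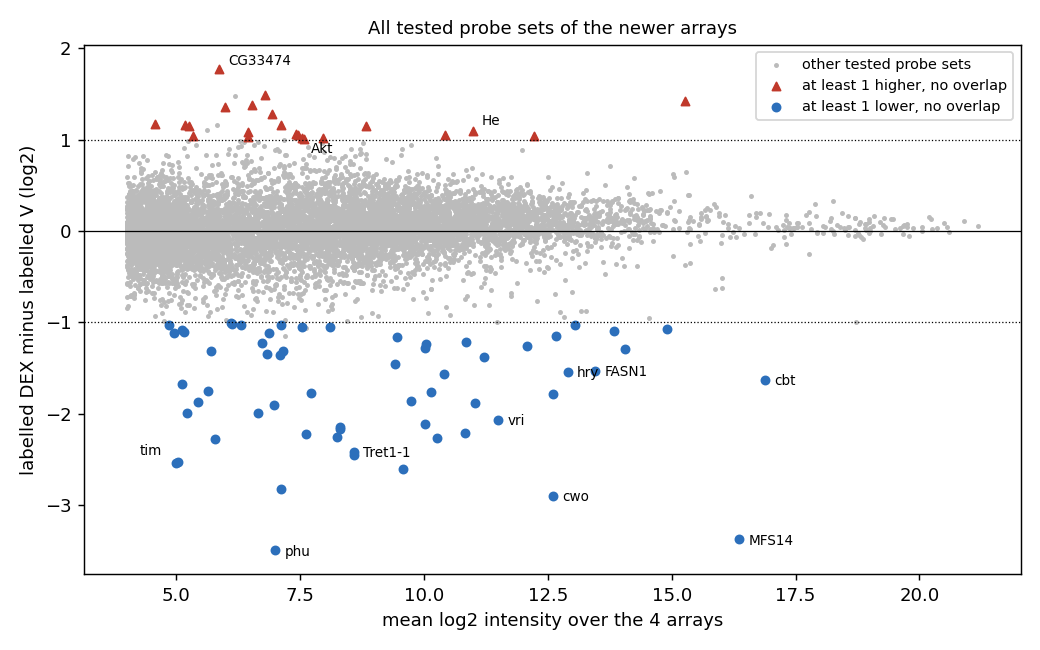
Difference between arrays labelled DEX and arrays labelled V (y axis, log2) against the mean log2 intensity of the 4 arrays (x axis) for 12436 tested probe sets, each point 1 probe set. Circles mark the 61 probe sets at least 1 lower and triangles the 22 at least 1 higher without overlap between groups, and the lower ones extend to -3.49 and the higher ones to 1.78.

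A fit that took its variance from all 8 arrays, over 6755 genes read on both designs, called 12 genes on the newer arrays (0.178%), 11 lower and 1 higher on the arrays labelled DEX. The lower ones were MFS14, Tret1-1, E(spl)m3-HLH, Pdp1, Orct2, Ugt35C1, phu, dnt, CtsL1, vri and hry, with adjusted p between 0.00553 for MFS14 and 0.0275. The higher one was Trp1, with a difference of 1.36 ± 0.127 (SE of the same fit, limma adjusted p = 0.0207). All 12 kept their sign when any of the 8 arrays was left out, but this could not turn out otherwise. Their groups on the newer arrays do not overlap, and the older arrays do not enter the newer difference. Their calls rested on the older arrays too: without either EtOH array 0 genes were called, without V replicate 2 the fit called 26 genes with 8 of the 12 among them, and without DEX replicate 2 it called 27 with 7 of the 12. Leaving out DEX replicate 1 gave 70 calls and leaving out V replicate 1 gave 101, each with all 12, and leaving out either older DEX array gave 6 with 5 of the 12. With the replicate number as a block, 0 genes were called.

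The clock feedback loop divided into transcripts that were lower on the arrays labelled DEX and transcripts with differences near 0. Of 7 tested genes on the list, 4 had both DEX arrays under both V arrays, where 20.3% of all 8579 tested genes did, and 1 had both over, against 15.0% of all genes. The list median was -2.07, against 0.01 for all genes. Lists here and below were chosen with earlier results of these data known, so such counts describe a list and do not test it.

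The repressor gene vri stood at 10.60 and 10.34 on the arrays labelled DEX, against 12.41 and 12.66 on those labelled V. The groups were far apart for the spread within them, a difference of -2.07 ± 0.16 (SE, unadjusted p = 0.000754 on the newer arrays alone, adjusted p = 0.849), and vri fell in the fit with the variance of all 8 arrays (limma adjusted p = 0.0275). The activator gene Pdp1 read 7.51 and 6.96 with DEX and 9.49 and 9.26 with V, a difference of -2.14 ± 0.25 that passed only in that fit (limma adjusted p = 0.0213). Both genes are read by probe sets ending in _s_at, which can also read other transcripts.

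The repressor gene cwo was read by a pair of probe sets that gave the same direction. The brighter one read 11.66 and 10.65 with DEX and 13.39 and 14.71 with V, a difference of -2.90 ± 0.66. The dimmer one read 5.04 and 4.25 with DEX and 6.21 and 7.64 with V, a difference of -2.28 ± 0.65. Its arrays within a group differed by about 1 on both probe sets, more than for vri or Pdp1, and cwo passed neither fit (adjusted p = 0.865 and 0.141). Without V replicate 2 the brighter probe set differed by -2.24.

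The clock gene tim, whose product pairs with PER, was at the bottom of the scale on the arrays labelled DEX. One tim probe set read 3.72 on both DEX arrays and 6.33 and 6.17 on the V arrays, and had the smallest p of all tested probe sets (unadjusted p = 3.89e-05). The other tim probe set read 3.76 on both DEX arrays, against 5.01 and 7.58 on the V arrays. The differences of tim were -2.54 and -2.53, but its DEX values lay at the level of cry, the photoreceptor gene, which read 3.73 and 3.71 with DEX and 3.74 and 3.72 with V. The size for tim is therefore bounded by the bottom of the scale. Its smallest p rests in part on the small spread there (SD 0.0024 with DEX, n = 2).

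The other tested members of the loop had differences near 0 or above it. The gene per read 5.82 and 5.85 with DEX and 5.77 and 5.92 with V, with overlapping groups and a difference of -0.01 ± 0.10. For cyc, the partner of CLK, the values were 7.72 and 7.70 with DEX and 7.81 and 7.71 with V. Clk was the one loop gene with both DEX arrays above both V arrays, at 8.23 and 8.46 against 7.94 and 8.09, a difference of 0.33 ± 0.15 that did not pass (unadjusted p = 0.105). Its _s_at probe set was not tested for reading the transcript of the CLKGR fusion. Among regulators of clock protein stability, 6 tested genes had a median of -0.02, and the largest difference was that of the ubiquitin ligase subunit gene Cul3 at -0.25, with overlapping groups. Cul3 differed by -0.48 without V replicate 2 and by -0.024 without V replicate 1. Of 9 tested genes on the list of rhythmic output, the deubiquitinase gene Usp8 was furthest from 0, at 8.43 and 8.31 with DEX and 7.69 and 7.77 with V.

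**Figure D2:**
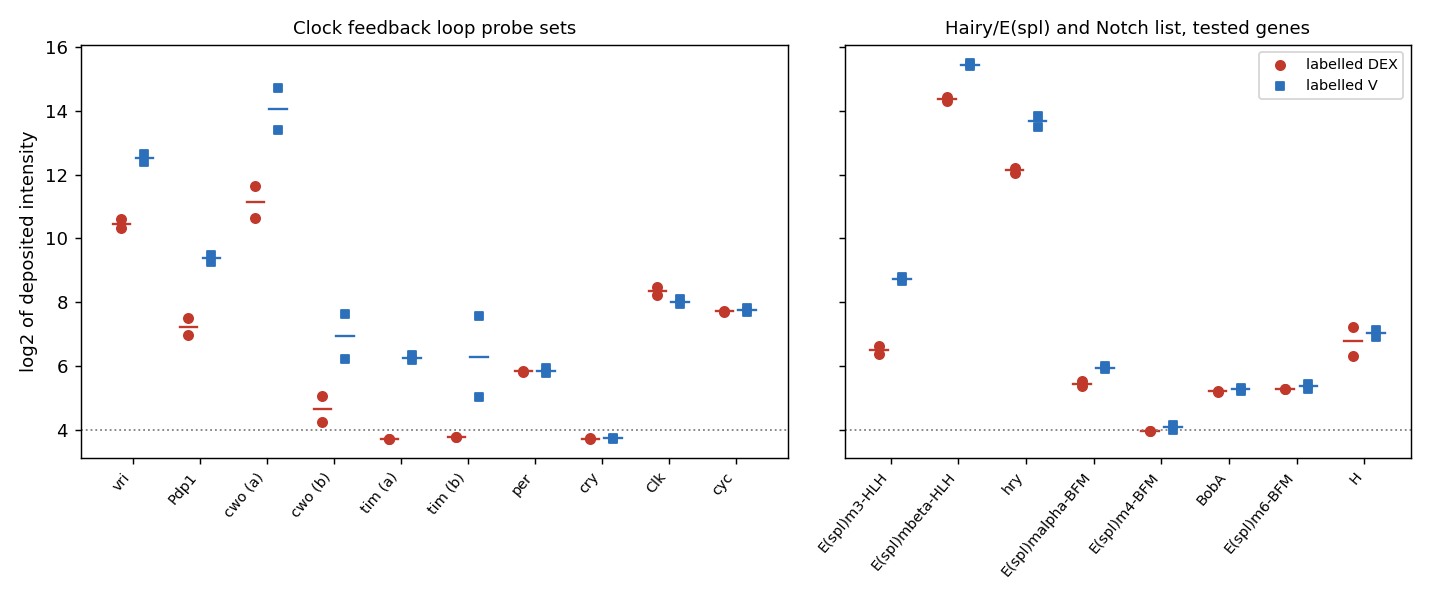
Log2 intensity (y axis) on the 2 arrays labelled DEX (circles) and the 2 labelled V (squares) for probe sets of the clock loop (left) and tested genes of the Hairy/E(spl) and Notch list (right), with group means as short lines and the bound of 4 dotted; (a) and (b) are separate probe sets. The DEX circles of vri, Pdp1, cwo, tim, hry, E(spl)mbeta-HLH and E(spl)m3-HLH lie below the V squares, while per and cyc coincide or overlap.

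The Hairy/E(spl) and Notch list joins bHLH-Orange repressors, of which many respond to Notch, with genes of the Bearded family and H. Its bHLH-Orange members E(spl)m3-HLH, hry and E(spl)mbeta-HLH leaned the same way as vri and cwo. Of 20 names on the list, 16 were on the array and 8 were tested. Of these, 7 had both DEX arrays under both V arrays (20.3% of all genes), bHLH-Orange and Bearded family genes together. None, 0, had both over, and the list median was -0.38. The repressor gene E(spl)m3-HLH read 6.63 and 6.37 with DEX and 8.79 and 8.66 with V, a difference of -2.23 ± 0.15, and fell in the fit with the variance of all 8 arrays (limma adjusted p = 0.0182). The pair-rule and neurogenesis gene hry read 12.22 and 12.05 with DEX and 13.50 and 13.85 with V, and fell by 1.54 in that fit (limma adjusted p = 0.0275). E(spl)mbeta-HLH was bright on all arrays, at 14.30 and 14.44 with DEX and 15.49 and 15.40 with V, a difference of -1.08 ± 0.09 that passed neither fit (limma adjusted p = 0.849 and 0.0989). E(spl)malpha-BFM, of the Bearded family, differed by -0.50. The remaining members without overlap were near 0, E(spl)m4-BFM at -0.10, E(spl)m6-BFM at -0.084 and BobA at -0.066, and H, for the corepressor Hairless, overlapped.

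Genes for membrane transport included the largest difference among bright probe sets. MFS14, of the major facilitator family, read 15.02 and 14.33 with DEX and 17.96 and 18.15 with V, a difference of -3.38 ± 0.29 with all DEX values far below all V values (limma adjusted p = 0.00553 with the variance of all 8 arrays; uncertain, _s_at). The trehalose transporter gene Tret1-1 read 7.28 and 7.48 with DEX and 9.63 and 9.96 with V, and fell by 2.42 in that fit (limma adjusted p = 0.00788). Its near copy Tret1-2 read 5.01 and 5.32 with DEX and 6.03 and 6.16 with V, and passed neither fit. These probe sets end in _a_at, which can read several transcripts of a gene. Whether the near copies share signal was not tested.

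The organic cation transporter gene Orct2 read 9.27 and 8.97 with DEX and 11.12 and 11.65 with V, and fell by 2.26 in the fit with the variance of all 8 arrays (limma adjusted p = 0.0213). CG6231, on the same list, read 9.43 and 8.49 with DEX and 11.12 and 11.04 with V, and Orct read 7.68 and 7.97 with DEX and 8.15 and 8.30 with V. Neither passed, and the difference was -0.40 for Orct. Of 18 tested genes on the list of organic ion and phosphate transporters, 10 had both DEX arrays lower (20.3% of all genes) and 1 had both higher (15.0%), CG6126 at 0.56. That list too was chosen with earlier results known, so its count is no test. The list median was only -0.08, because several of those 10, such as NaPi-T at -0.02 and CG7333 at -0.01, differed by almost nothing. Of 7 tested genes on the list of sugar transporters, 3 were lower (20.3% of all genes) and 1, sut1 at 0.38, was higher without overlap (15.0%). The sugar transporter gene pippin was not on that list and differed by -1.36 without overlap, with an unadjusted limma p of 0.0161.

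Channel and carrier genes were also among the 20 lower genes with the smallest p. ClC-a, for a chloride channel, read 4.50 on both DEX arrays, against 6.38 and 6.36 on the V arrays, on one probe set. Its DEX signal there was low, and its p rests in part on the small spread (SD 0.0022, n = 2). The brighter ClC-a probe set read 5.99 and 5.93 with DEX and 5.94 and 6.03 with V, so the ClC-a probe sets disagree. Irk3, for an inwardly rectifying potassium channel, read 5.55 and 5.74 with DEX and 7.32 and 7.96 with V. Rim2, for a mitochondrial pyrimidine nucleotide carrier, read 10.34 and 9.84 with DEX and 11.98 and 11.95 with V, a difference of -1.88 ± 0.22 that passed neither fit (limma adjusted p = 0.865 and 0.0552).

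Genes of metabolism lay on both sides. The fatty acid synthase gene FASN1 read 12.80 and 12.58 with DEX and 14.10 and 14.35 with V, a difference of -1.53 ± 0.15. Hex-A, for the hexokinase that opens glycolysis, read 11.47 and 11.41 with DEX and averaged 12.71 ± 0.41 with V (SD, n = 2). Both V arrays were higher, and the difference of -1.26 was -0.97 without V replicate 2. The other 8 tested genes of glycolysis differed by 0.19 or less in size, and Gapdh1 was the highest at 0.19, or 0.095 without V replicate 2 and 0.12 without DEX replicate 2. Ugt35C1, for a UDP-glycosyltransferase, read 6.83 and 7.40 with DEX and 9.12 and 9.62 with V, and fell by 2.26 in the fit with the variance of all 8 arrays (limma adjusted p = 0.0275). The lysosomal cathepsin gene CtsL1 was among the brightest, at 18.20 and 18.24 with DEX and 19.18 and 19.24 with V, and fell by 0.99 in that fit (limma adjusted p = 0.0275; uncertain, _s_at). In the other direction whd, for the carnitine palmitoyltransferase that admits fatty acids to mitochondria, read 9.25 and 9.56 with DEX and 8.46 and 8.07 with V. Npc2b, of the sterol-binding NPC2 family, read 5.47 and 4.85 with DEX, against a mean of 3.99 with V, at the bottom of the scale.

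Further genes among the 61 lower probe sets were picked by function after their values were seen, and are no tested group; the list of insulin and TOR genes had 0 members at least 1 lower. The sugar-responsive zinc-finger gene cbt was bright, at 16.42 and 15.72 with DEX and 17.66 and 17.73 with V, a difference of -1.63 ± 0.28. Another sugar-responsive zinc-finger gene, sug, read 4.89 and 4.64 with DEX and 5.91 and 7.11 with V. REPTOR, for a bZIP factor held back by TOR signalling, read 9.28 and 8.34 with DEX and 10.46 and 10.89 with V. Prps, for the enzyme that makes phosphoribosyl pyrophosphate, read 10.31 and 9.13 with DEX and 11.58 and 12.29 with V. NAT1 and mxt, both for factors of translation initiation, differed by -1.03 ± 0.17 and -1.06 ± 0.23, and Paip2, for a repressor of translation that binds the poly(A)-binding protein, by -1.14 ± 0.44. The splicing factor gene ps differed by -1.76 ± 0.46 and -1.90 ± 0.57 on 2 of its 5 tested probe sets, and all 5 were negative. The probe sets given for these 8 genes did not pass in the fit of the 4 arrays (unadjusted limma p between 0.00699 for NAT1 and 0.0749 for Paip2). The V arrays lay further apart than those of vri for sug, REPTOR, Prps, mxt, Paip2 and both ps probe sets, and closer for cbt and NAT1.

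Genes read by several probe sets could be compared within these arrays. Among genes with a probe set at least 1 apart, 13 had more than 1 tested probe set, and all probe sets of a gene had the same sign in 12. The exception was CG32425, with probe sets from -1.29 to 0.58. These genes were picked for a probe set far apart, and the share over all genes with several probe sets was not taken. The count therefore has nothing to be judged against. In some of the 12 the shared sign rests on a probe set near 0, as for ClC-a (-0.022), CG3764 (-0.0049), Mob2 (-0.018), CG42675 (-0.060), regucalcin (0.064) and ps (-0.010), so those probe sets do not share the size of the difference. Only 5 genes had more than 1 probe set past the bound: cwo, tim, ps, aqz at -1.56 and -1.79, and the anion exchanger gene Ae2 at -1.28 and -1.24.

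Further genes named by p among the lower ones included phu, which had the largest difference of all tested probe sets. The values of phu were 4.93 and 5.58 with DEX and 8.74 and 8.75 with V, and fell by 3.49 in the fit with the variance of all 8 arrays (limma adjusted p = 0.0275). The gene dnt, for a receptor of the Ryk family, read 6.15 and 6.16 with DEX and 7.62 and 7.38 with V, and fell by 1.35 in that fit (limma adjusted p = 0.0275). The genes CG3348, CG4766 and CG7530 differed by -2.17, -1.78 and -1.10, with unadjusted p of 0.000484, 0.00116 and 0.00112, and none passed.

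**Figure D3:**
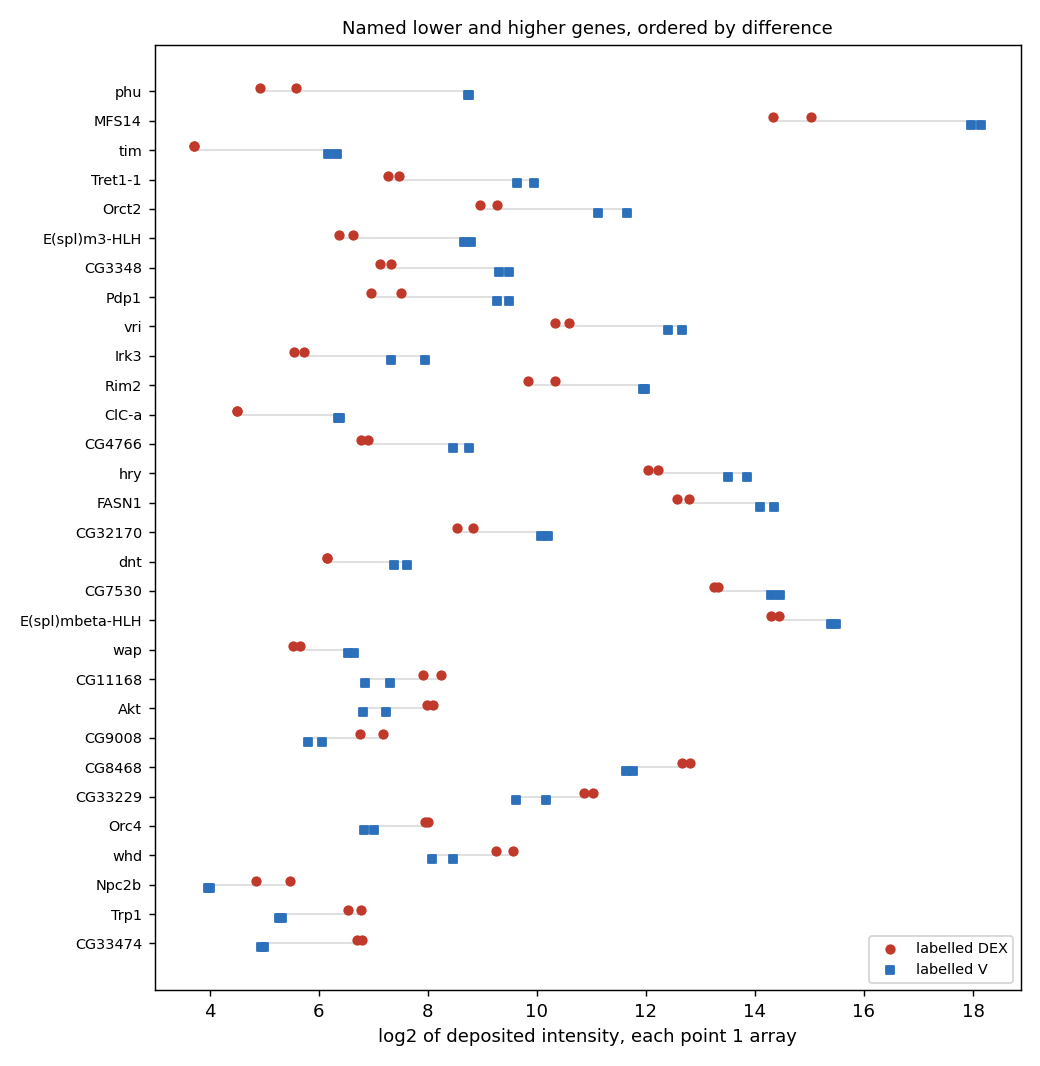
Log2 intensity (x axis) on each array labelled DEX (circles) and V (squares) for the 20 lower and 10 higher genes with the smallest p among those at least 1 apart without overlap, ordered by difference. The circles lie left of the squares for the upper 20 genes, from phu at -3.49 to wap, and right of them for the lower 10, up to CG33474 at 1.78.

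By the bound of 1 the genes higher on the arrays labelled DEX were fewer, and the differences smaller. Trp1, for a protein of translocation into the endoplasmic reticulum, read 6.78 and 6.53 with DEX and 5.27 and 5.33 with V, and it alone of the higher genes rose in the fit with the variance of all 8 arrays. Orc4, of the origin recognition complex, read 7.94 and 8.01 with DEX and 7.01 and 6.84 with V. CG8468 was the brightest named one, at 12.81 and 12.67 with DEX and 11.76 and 11.64 with V (uncertain, _s_at). The kinase gene Akt of insulin signalling read 8.10 and 7.98 with DEX and 6.81 and 7.24 with V (uncertain, _s_at). CG33229, CG9008 and CG11168 differed by 1.05, 1.03 and 1.00. Without V replicate 2, Orc4 and CG8468 each differed by 0.97, whd by 0.95, CG33229 by 0.78 and CG11168 by 0.77, all under the bound of 1. Trp1, Akt, CG9008, Npc2b and CG33474 stayed beyond it. A probe set annotated to 3 genes, and so left unnamed, differed by 1.42 and was bright, at 16.04 and 15.93 with DEX and 14.65 and 14.48 with V.

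Genes with no probe set on the older arrays made up 670 of the tested probe sets, from 627 genes. Of these probe sets, 1 was at least 1 lower without overlap (0.149%) and 2 were at least 1 higher (0.299%), where the shares among genes also on the older arrays were 0.628% and 0.183%. CG33474 had the largest higher difference of the whole table, at 6.79 and 6.70 with DEX and 4.99 and 4.95 with V, a difference of 1.78 ± 0.09 (SE, unadjusted p = 0.000171, adjusted p = 0.709). CG32170 read 8.82 and 8.54 with DEX and 10.20 and 10.07 with V. The third was He, for the haemocyte surface protein Hemese, at 11.84 and 11.21 with DEX and 10.68 and 10.19 with V. Its difference of 1.09 was 0.85 without V replicate 2. Without a size bound, the next by p were Tsen15, of tRNA splicing, at 0.31, CG32625 at 0.49 and Rnf11 at 0.39, named after their values were seen. A further 2726 tested probe sets had no gene symbol, and 5 of them were at least 1 lower, down to -2.82, and 3 at least 1 higher, up to 1.28.

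The haemocyte markers checked the labelled cell type. All 10 were on the array and tested, with means between 6.53 for crq and 15.74 for Pxn. The mean over the list was 11.38 and 11.21 with DEX and 11.04 and 11.03 with V. Of the 10, 4 had both DEX arrays over both V arrays, where 15.0% of all genes did. These were He, the receptor tyrosine kinase gene Pvr, the GATA cofactor gene ush and the phagocytic receptor gene NimC1. Pvr read 14.03 and 14.19 with DEX and 13.53 and 13.26 with V. Lower without overlap were 0 of 10, against 20.3% of all genes. The part of these markers in the other differences was not tested. In bulk RNA fewer cells of a type and less RNA per cell cannot be told apart. Markers of other tissues lay mostly near the bottom of the scale. The neuron list averaged 4.39 and 4.41 with DEX and 4.57 and 4.51 with V over 4 tested genes. Of these, 2 were lower and 1 higher without overlap (20.3% and 15.0% of all genes). The fat body and gut list averaged 4.42 and 4.36 with DEX and 4.26 and 4.58 with V over 2 genes. The neuronal RNA-binding protein gene elav read 5.50 and 5.49 with DEX and 6.44 and 5.51 with V, and brp was the other lower neuron marker, at -0.24. Exceptions in level were the piRNA factor gene aub at 9.32 and 9.41 with DEX and 9.57 and 8.97 with V, bam at 6.10 to 6.31, and moody at 7.39 to 7.73, and the groups of these 3 genes overlapped.

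The other lists had medians near 0. Among all 8579 tested genes 20.3% were lower and 15.0% higher without overlap, the shares against which the counts below stand. For the ecdysone response the median over 10 tested genes was -0.03 and for the immune response over 14 it was 0.02. Of 10 heat shock genes 3 were higher and 1 lower without overlap, with a median of 0.01, and among 12 genes of ER and integrated stress the one large difference was that of the stress gene Gadd45. It read 12.30 and 12.41 with DEX and 13.07 and 13.52 with V, a difference of -0.94 ± 0.20. Without V replicate 2 Gadd45 differed by -0.72. In the AP-1 list the Jun gene Jra differed by 0.40, while the Fos gene kay had probe sets that disagreed, at 0.44 on the brighter and -0.80 on the dimmer. Of 14 tested genes of cell cycle and DNA replication 3 were higher without overlap, CycB at 0.61, PCNA at 0.23 and Mcm3 at 0.23, and the list median of 0.20 was the highest. Without V replicate 2, PCNA differed by 0.15 and Mcm3 by 0.087. Ribosomal protein genes had a median of 0.04 over 29 genes, with 6 higher and 0 lower without overlap (20.3% lower and 15.0% higher among all genes), and proteasome genes 0.08 over 26, with 7 higher and 1 lower. Insulin and TOR genes had 4 higher and 2 lower of 11, with Akt at 1.01 and the insulin-binding ImpL2 at -0.63, which was -0.32 without V replicate 2. Among 10 apoptosis genes the inhibitor genes Bruce and Diap2 had opposite signs, at -0.80 and 0.31. The 24 tested cytochrome P450 genes had 6 lower (25%) and 5 higher (20.8%), with Cyp12d1-d at -0.58.

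**Figure D4:**
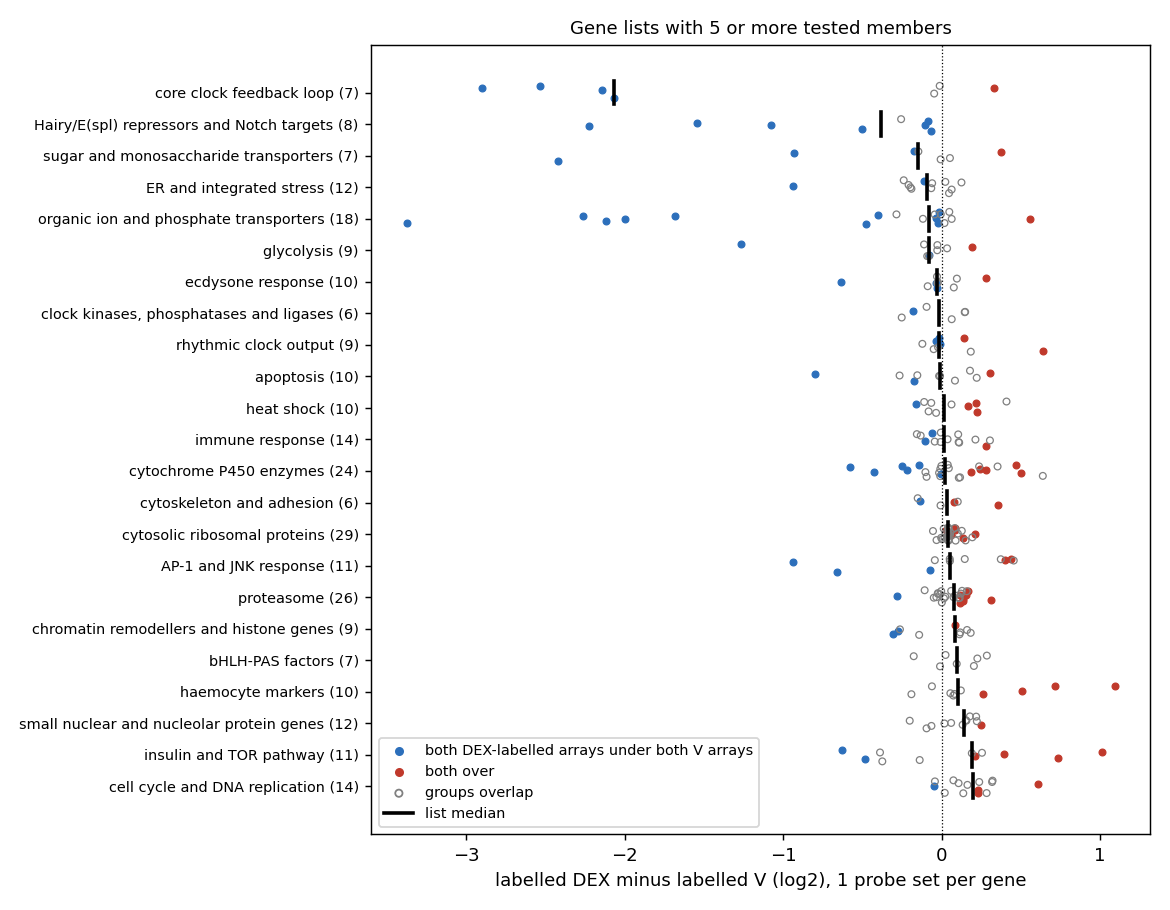
Difference between arrays labelled DEX and arrays labelled V (x axis, log2) for tested members of each gene list with 5 or more of them, each point 1 gene by its brightest probe set and the black bar the list median. The core clock list (median -2.07) and the Hairy/E(spl) and Notch list (-0.38) lie furthest to the left, and a few transporter genes reach as far as MFS14 at -3.38 while the medians of their lists stay near 0.

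Set against the older arrays, the genes at least 1 lower on the newer arrays were picked by their newer values alone, with the opposite signs of several already known. Of the 48 of them that were read on both designs, 34 were positive on the older arrays (DEX minus EtOH), 27 had both older DEX arrays over both EtOH arrays, and their median was 0.98. Over all 6755 genes the share that was positive was 47.2%, the share with both DEX arrays over was 15.7%, and the median was -0.01. Of the 13 genes at least 1 higher on the newer arrays, 6 were positive and 7 negative on the older ones, with a median of -0.02. Tested directly, the newer minus the older effect passed in 27 of 6755 genes (0.400%), 24 of them negative, and 20 of the 48 lower genes and 1 of the 13 higher genes were among these.

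Of the clock genes, vri differed by 4.04, cwo by 2.91 and Pdp1 by 2.34 on the older arrays. The gene tim had a difference of 2.62 there, with both DEX arrays above both EtOH arrays. The newer minus the older difference of tim, -5.15 with its brighter newer probe set, did not pass (limma adjusted p = 0.277). E(spl)m6-BFM passed in another way, with a difference near 0 on the newer arrays (-0.084) and of 2.19 on the older (limma adjusted p = 0.00918). Its newer values were low, at 5.27 on both DEX arrays and 5.44 and 5.27 on the V arrays. Whether its transcript is read there was not tested.

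Among the lower genes, some were opposite on the older arrays and others lay near 0 there. The sugar-response gene cbt was at 1.76 on the older arrays, REPTOR at 1.14, FASN1 at 1.40 and Prps at 2.16, all opposite to the newer ones, and of these FASN1 and Prps passed the test of the difference (limma adjusted p = 0.0322 and 0.0311) while cbt and REPTOR did not (0.0765 and 0.121). By contrast dnt was at 0.10 on the older arrays, ps at 0.15 and Paip2 at -0.05, and NAT1, mxt and pippin, a sugar transporter gene, were lower on both designs, at -0.34, -0.29 and -0.24 on the older. For these genes the difference between designs was not called (limma adjusted p from 0.0565 for dnt to 0.951 for ps). Ugt35C1 differed by -0.0072 on the older arrays. It read between 4.12 and 4.23 on all of them, near the bottom of the scale, so that value says little of its response there. The older values of dnt, between 4.73 and 5.03, were low too. Akt was higher with DEX on both, at 1.15 on the older arrays.

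**Figure D5:**
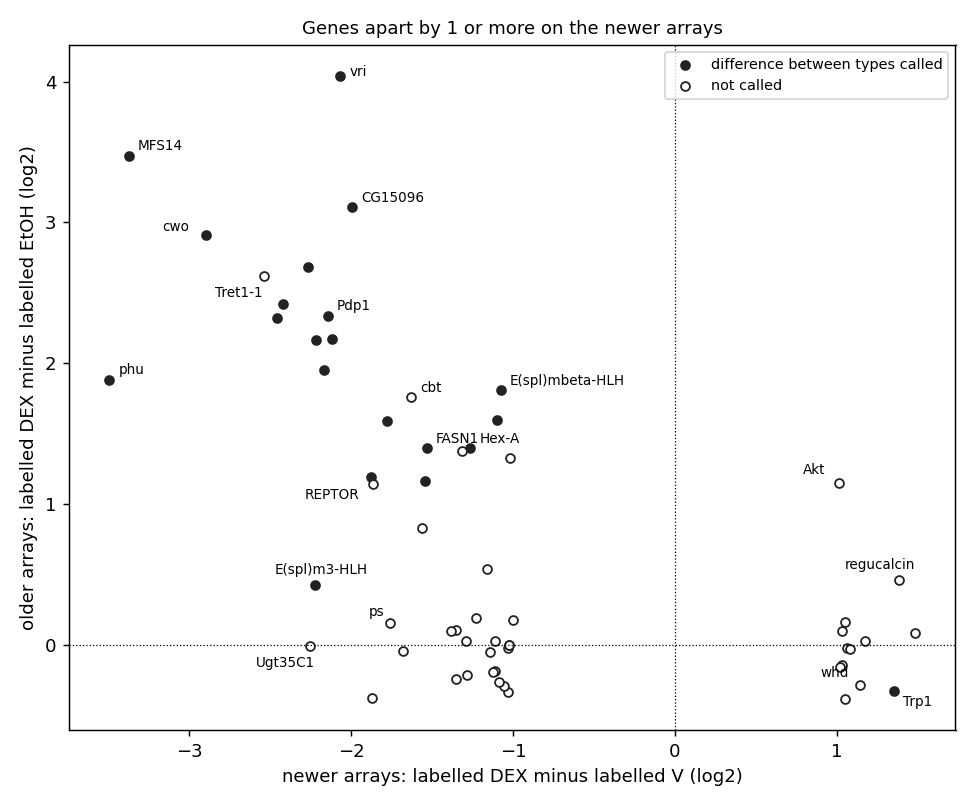
Difference on the older arrays (y axis, DEX minus EtOH, log2) against that on the newer arrays (x axis, labelled DEX minus labelled V, log2) for the 61 genes at least 1 apart without overlap on the newer arrays and read on both designs; filled points passed the test of the difference between designs. For a gene with several probe sets the newer value is that of the smallest p and the test used the brightest. Of the 48 genes on the left, 34 lie above 0, up to vri at 4.04, and the others lie within 0.38 of 0 below it.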

How the data were processed

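The deposited tables of both designs hold GCRMA intensity values on a linear scale, per the submitters' processing notes and the values; GCRMA corrects background by probe sequence, normalises by quantiles and yields logs. Neither its version nor the base used to leave the log scale is given in the sources used here. Between 120 and 123 probe sets per newer array lie above 65535, the top of the scanner's range. The highest log2 values per newer array lie between 21.11 and 21.31. If the base was e, each log2 difference is to be multiplied by 0.693, so no folds are given.

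From these values log2 was taken with no pseudocount, and 183 control probe sets were left out. Probe sets with a mean of at least 4 were fitted with limma 3.58.1 in R 4.3.3 (lmFit, eBayes with intensity trend, two-sided, Benjamini-Hochberg, 2 residual degrees of freedom). A second fit, with 1 probe set per gene and design and a mean of at least 4 on each, gave the variance of all 8 arrays and the test between designs. Both were tested on simulated data. Symbols come from the platform annotation, updated through RefSeq genes of Release 6 plus ISO1 MT: 13647 probe sets had 1 symbol (13544 matched), 402 several and 4720 none. Besides genes marked above, _s_at probe sets also read CG6231, CG7530, CG9008, Npc2b, whd, NAT1, mxt and REPTOR, among others, which are uncertain in the same way.

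Separate cultures are not mentioned in the labels; p-values then reflect the spread of these arrays alone, possibly technical, and the number of arrays limits precision. Members and lists were chosen with earlier results of these data known. Named were the core clock genes, the 20 lower and 10 higher genes of smallest p at least 1 apart without overlap, genes called with the variance of all 8 arrays, genes of the newer design only, and up to 3 of each other list by p. Replicate numbers did not pair the samples (correlation of deviations -0.0231). Alternatives were other filters, scalings and variance models, plain _at probe sets, a replicate block and leaving out each array.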

Additional observations from a re-analysis of the deposited data

Results flagged for a closer look

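In 27 genes the newer minus the older difference passed a direct test (limma, interaction of label and array design). Among clock genes it was -6.11 for vri, -5.81 for cwo and -4.48 for Pdp1, while tim, at -5.15, did not pass. The tim probe set used read 5.01 and 7.58 on the V arrays, and the other tim probe set was not put to this test. Among Hairy/E(spl) and Notch genes, E(spl)mbeta-HLH had -2.88, hry had -2.71, E(spl)m3-HLH had -2.65 and, with the smallest size of these, E(spl)m6-BFM had -2.27. The transporter and carrier genes MFS14 (-6.85), CG15096 (-5.10), Orct2 (-4.95), Tret1-1 (-4.84), CG6231 (-4.29) and Rim2 (-3.07) followed. Of the enzyme genes, Prps stood at -4.38, FASN1 at -2.93, Hex-A at -2.66 and CtsL1 at -2.48. The others with negative values were phu (-5.38), CG3764 (-4.78), CG3348 (-4.12), CG13868 (-3.76), CG4766 (-3.36), Gadd45 (-3.18) and CG7530 (-2.70). Positive values were those of CG3857 (2.05), Trp1 (1.69) and CG8630 (0.78). In the 24 genes with a negative value the newer difference was below 0 and the older one above 0, though for E(spl)m6-BFM the newer one was only -0.084. Array design, the control (V or EtOH) and an exchange of labels cannot be told apart here.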

How the results depend on the processing

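On the 4 newer arrays 0 probe sets were called under each planned filter, scaling, variance model within these arrays, the replicate block and each array left out. With the variance of all 8 arrays 12 genes were called, and 14 with the mean taken over all 8 arrays, a choice made after the data were seen. At an unadjusted p of 0.05 the 439 probe sets became 268 with a mean of at least 6 (fewer tested), 379 with the replicate block, and 689 to 1761 with 1 array left out. The 61 lower and 22 higher probe sets became 31 and 12 with plain _at probe sets alone, 34 and 2 if the base was e, and 81 to 157 and 34 to 114 with 1 array left out; the block leaves them as they are. The test of the difference between designs called 27 genes, and 16 with plain _at probe sets (all 16 of the 27 that could be tested), 10 with the replicate block, 8 or 11 without EtOH replicate 1 or 2, 48 and 56 without newer DEX replicate 1 or V replicate 1, and 8 to 56 over all arrays left out. Among the named genes, signs turned in genes whose groups were not well apart, including sima at 0.29 and ss at 0.20. With median centring these were Mlc2 (0.011), per (0.0075) and vas (0.0021), and with quantiles repeated Mlc2 (0.012), per (0.011), vas (0.0041) and moody (-0.017). With 1 array left out per ran between -0.087 and 0.063, moody between -0.17 and 0.17, Yp1 between -0.17 and 0.28, aub between -0.20 and 0.40, bam between -0.094 and 0.12, cyc between -0.097 and 0.0032, Mid1 between -0.24 and 0.00083, sima between -0.012 and 0.58 and ss between -0.014 and 0.42. The cause was not tested. Low signal limits tim, cry, sug, Npc2b, CG15096 and one ClC-a probe set, and CG8630 on the older arrays. CG15096 read 3.98 and 4.46 with DEX on the newer arrays and 3.29 and 3.47 with EtOH on the older. CG8630 read 3.87 and 4.01 with DEX on the older arrays.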
